A study of Mus musculus and Homo sapiens with 30 samples.

Results

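The genes described here are 10 mouse genes of prostaglandin synthesis, breakdown, transport and signalling: Pla2g4a, Ptgs1, Ptgs2, Ptges, Ptges2, Ptges3, Hpgd, Slco2a1, Ptger1 and Ptger4. They were chosen by name, with earlier results of these data known, and matched to their Ensembl identifiers. All 10 were found among the 56980 gene identifiers of the mouse count table. They were followed by polyA RNA sequencing in E0771 and NMuMG cells in 3 media, with 3 libraries per group and 18 libraries in all. E0771 is a mouse mammary tumour line, and NMuMG is a line of mouse mammary gland epithelium, although the labels give both as breast cancer.

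Prostaglandins are short-lived lipid signals. Cytosolic phospholipase A2 (Pla2g4a) frees arachidonic acid from membrane phospholipids, the cyclooxygenases Ptgs1 and Ptgs2 turn it into prostaglandin H2, and the prostaglandin E synthases Ptges, Ptges2 and Ptges3 turn that into prostaglandin E2. The transporter Slco2a1 carries prostaglandins across the cell membrane, Hpgd oxidises them to inactive forms, and Ptger1 and Ptger4 encode the receptors EP1 and EP4, of which EP4 raises cAMP. Ptgs1 is regarded as the constitutive cyclooxygenase and Ptgs2 as the inducible one.

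Both lines were plated below confluency and grown for 36 h in DMEM with 10% FBS, and the NMuMG medium also contained insulin (10 mcg/ml) and a stated 4.5 g/L of glucose. The cells then had 16 h of standard growth medium (control), or of 50% lean or 50% obese inguinal adipocyte secretome, made up with standard growth medium. In the control group the cells had undiluted growth medium, so a secretome and a dilution of the growth medium cannot be told apart against control, whereas lean and obese secretome were given at the same share. The sources used here do not say how many mice gave each secretome, or whether replicate libraries came from separate cultures, so p-values measure the spread between libraries, which may be technical.

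Library totals ran from 22929035 to 31094119 counts. Markers of mammary epithelium were strong in NMuMG control libraries (Cdh1 542 CPM and Krt18 2520 CPM on average, in counts scaled to a library total of 1000000). In E0771 control libraries Krt8 stood at 254 CPM, but Cdh1 averaged 0.143 CPM and Krt18 had no count, and the 4 mesenchymal markers summed to 3060 to 3180 CPM there and to 3540 to 3690 CPM in NMuMG. The adipocyte markers Lep and Adipoq had no counts in control medium in either line, where the 8 adipocyte markers summed to at most 1.09 CPM. The 7 macrophage and leukocyte markers summed to 174 to 191 CPM in NMuMG control libraries, nearly all of it Cd14, and to 1.86 to 3.39 CPM in E0771, while Itgam and Tyrobp had no counts in any group.

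Levels in control medium already set the lines apart. Per kilobase of exon, Ptges3, a co-chaperone that also acts as a cytosolic prostaglandin E synthase, was the most abundant of the 10 genes in both lines, at 128 ± 3.31 CPM per kb in E0771 and 117 ± 4.35 in NMuMG (SD, n = 3, here and for other means). In NMuMG it was followed by Pla2g4a (13.4 ± 0.178 CPM per kb), Slco2a1 (8.55 ± 0.396), Ptgs2 (7.51 ± 0.598), Ptges2 (5.57 ± 0.171) and Ptgs1 (4.53 ± 0.424). In E0771 it was followed by Ptges2 (11.2 ± 1.00 CPM per kb) and Ptges (7.55 ± 0.0555), and then by Pla2g4a at 1.44 ± 0.246. The remaining E0771 genes were all under 0.25 CPM per kb on average, Ptgs2 at 0.0338 ± 0.0210. Exon lengths were the union of annotated exons, so these levels assume that each transcript covers all of it.

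**Figure D1:**
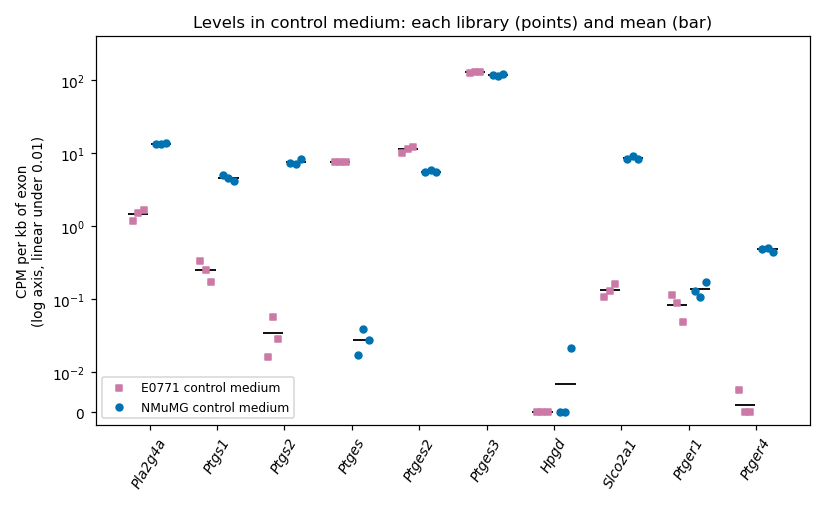
Levels of the 10 genes in control medium, in CPM per kilobase of annotated exon on a log axis that is linear under 0.01. Points are the 3 libraries of each line and bars their mean; Pla2g4a, Ptgs1, Ptgs2, Slco2a1 and Ptger4 lie higher in NMuMG, and Ptges and Ptges2 lie higher in E0771.

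In NMuMG control against E0771 control, 7 of the 9 genes that passed the low-count filter differed at an adjusted p under 0.05 (edgeR quasi-likelihood test, Benjamini-Hochberg), where 80.5% of all 16529 tested genes did, 43.4% higher and 37.1% lower in NMuMG. The libraries of the lines did not overlap for 8 of these 9 genes, all but Ptger1, and for 82.7% of all tested genes. Ptges passed the filter only through E0771 and Ptger4 only through NMuMG, so their part in both counts was close to fixed in advance. Pla2g4a was higher in NMuMG by 3.34 on the log2 scale (SE 0.113), Ptgs1 by 4.27 (SE 0.197), Ptgs2 by 7.86 (SE 0.655) and Slco2a1 by 6.14 (SE 0.145). Ptges stood the other way, with a log2 difference of -7.94 (SE 0.458), as did Ptges2 with -0.90 (SE 0.0599). The highest adjusted p of these 6 genes was 8e-16. Ptger4 had 265 counts in the 3 NMuMG control libraries and 1 count in the 3 of E0771, a ratio of rates of 244 with an exact 95% interval of 43.4 to 9680 that covers counting error only. Ptges3 (adjusted p = 0.598) and Ptger1 (0.0738) did not pass, although Ptger1 did without E0771 control replicate 1 (0.0431). The sources used here give insulin and a glucose level for the NMuMG medium only, so line and medium cannot be told apart here.

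Ptgs2 RNA was higher with lean secretome in both lines. In NMuMG the counts were 983, 849 and 1050 in control medium, 1708, 1228 and 1488 with obese secretome, and 4171, 3578 and 3489 with lean secretome. Scaled to library totals these were 34.4 ± 2.74, 59.4 ± 10.6 and 138 ± 5.51 CPM, and no library of one medium overlapped with another. In E0771 the counts were 2, 7 and 3 in control medium, 5, 9 and 5 with obese secretome, and 16, 18 and 19 with lean secretome. All 3 lean libraries of E0771 lay above the other 6, which overlapped, and the highest E0771 level, 0.653 CPM, was far under the lowest NMuMG level of 32.5 CPM. In bulk RNA, fewer cells that express a gene and less RNA per cell cannot be told apart, and this holds for each level below.

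Ptgs2 (ENSMUSG00000032487) rose 4.01-fold with lean secretome over control in NMuMG, or by 2.00 on the log2 scale, with an SE of 0.132 and an adjusted p of 3.09e-05. Ordered by log2 fold change it stood at place 63 of 15014 genes. Over obese secretome it rose 2.30-fold (SE 0.126 on the log2 scale, adjusted p = 0.000417). Obese secretome over control gave 0.80 (SE 0.139, adjusted p = 0.0272). That call was lost without any of control replicates 1, 2 and 3, lean replicate 2 or obese replicate 3, and with only the 2 groups in the fit (adjusted p between 0.0515 and 0.113). In E0771, lean over control gave 1.93 on the log2 scale, with an SE of 0.523 and an adjusted p of 0.0012, at place 93 of 13813 genes. Lean over obese gave 1.32 (SE 0.453, adjusted p = 0.0121), which was lost without obese replicate 1 (0.052) or obese replicate 3 (0.0692). The E0771 changes rest on 12, 19 and 53 counts in the control, obese and lean groups. Ptgs2 passed the low-count filter in E0771 only through its lean libraries, so its lean calls and place there were partly set in advance.

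The size of the lean response of Ptgs2 could be compared between the lines only loosely. The difference of the lean-over-control effects, NMuMG minus E0771, was 0.04 on the log2 scale with a 95% interval of -1.39 to 1.47 (adjusted p = 1), and that of the lean-over-obese effects was -0.14, with an interval of -1.34 to 1.06 (adjusted p = 0.931). With the low counts of E0771 these intervals run far to both sides of 0.

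**Figure D2:**
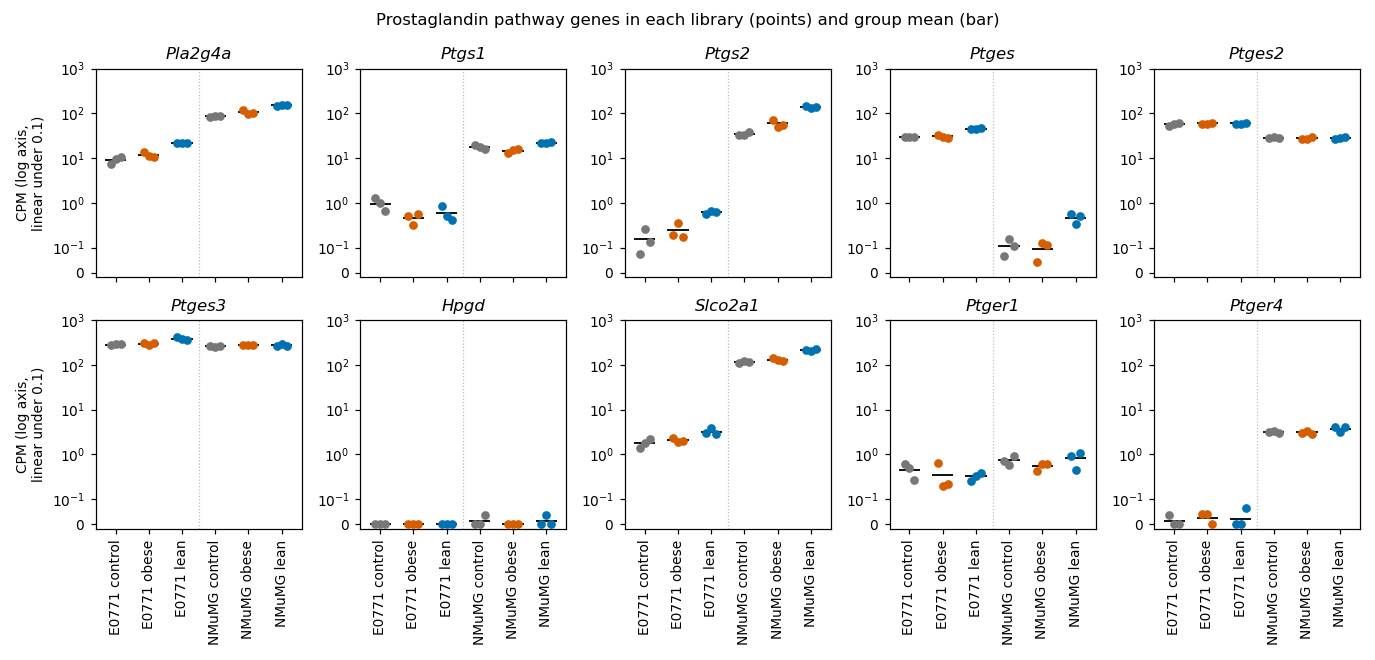
CPM of each gene in each of the 18 libraries (points) with the group mean (bar), on a log axis that is linear under 0.1, for control (grey), obese (orange) and lean (blue) media. Ptgs2, Pla2g4a and Slco2a1 lie highest with lean secretome in both lines, Ptges does so at a high level in E0771 and near 0 in NMuMG, and Hpgd is at or near 0 in all libraries.

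The genes that rose with lean secretome over both control and obese medium in both lines were Ptgs2, Pla2g4a and Slco2a1. Their RefSeq promoter stretches are shown because they moved together. They are the 250 bases before the annotated start on GRCm38.p6, 5′ to 3′ on the gene's strand, where capitals mark a TATA box (TATAAA). Pla2g4a lies on the minus strand and has another RefSeq window, at chr1:149922440-149922689, which is not shown.
Ptgs2, chr1:150099781-150100030, plus strand: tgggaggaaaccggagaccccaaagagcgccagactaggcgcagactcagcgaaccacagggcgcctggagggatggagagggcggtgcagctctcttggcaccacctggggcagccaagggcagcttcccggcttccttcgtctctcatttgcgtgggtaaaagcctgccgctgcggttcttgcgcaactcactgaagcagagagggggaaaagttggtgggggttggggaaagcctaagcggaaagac
Pla2g4a, chr1:149961291-149961540, minus strand: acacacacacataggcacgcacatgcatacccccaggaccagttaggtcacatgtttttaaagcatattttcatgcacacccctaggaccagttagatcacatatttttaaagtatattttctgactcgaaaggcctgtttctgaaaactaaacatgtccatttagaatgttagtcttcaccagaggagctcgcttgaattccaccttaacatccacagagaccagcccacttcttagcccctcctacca
Slco2a1, chr9:103008237-103008486, plus strand: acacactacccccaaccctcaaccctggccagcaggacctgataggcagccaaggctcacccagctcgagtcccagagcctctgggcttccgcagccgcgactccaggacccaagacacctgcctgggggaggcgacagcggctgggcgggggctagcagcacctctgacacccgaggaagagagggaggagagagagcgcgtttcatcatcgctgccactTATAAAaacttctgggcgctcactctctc
Slco2a1 held a TATA box at position -29, counted from the annotated start, and the stretches shown of the other 2 genes held none with these letters. The Pla2g4a window that is not shown held TATAAA at position -200, on the strand opposite to the gene. The search covered windows that run on for 50 bases past the start. In that last part Ptgs2 held the short CRE core (TGACG) on the minus strand that overlaps with an E-box (CACGTG), from position 14 to 22. Both are in capitals in this stretch of the plus strand, chr1:150100036-150100060.
Ptgs2 stretch: caccactaCGTCACGTGgagtccgc
Of the 32851 mouse promoter windows of this length in the RefSeq table, 13.6% held TATAAA, 20.8% held TGACG and 7.15% held CACGTG, on either strand. The full CRE (TGACGTCA, in 1.79% of windows), the AP-1 site (TGANTCA, 7.81%) and the PPRE, a direct repeat bound by PPAR receptors (0.0396%), were in none of the windows of the 9 genes that have one. Ptger1 had no window in the table.

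Pla2g4a, the phospholipase that supplies arachidonic acid, lies beside Ptgs2 on chromosome 1, with no protein-coding gene and 2 other genes between them (GRCm38.p6). In NMuMG its levels were 84.7, 86.3 and 86.9 CPM in control medium, 121, 98.1 and 103 with obese secretome, and 146, 157 and 155 with lean secretome. In E0771 they were 7.48, 9.58 and 10.6 CPM in control medium, 13.7, 10.9 and 10.7 with obese secretome, and 21.7, 21.6 and 22.2 with lean secretome. In both lines the order was control, obese and lean with no overlap.

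Lean over control, Pla2g4a (ENSMUSG00000056220) rose by 1.24 on the log2 scale in E0771 (SE 0.107, adjusted p = 1.39e-09) and by 0.83 in NMuMG (SE 0.0676, 1.4e-06). Lean over obese, it rose by 0.89 in E0771 (SE 0.102, 1.7e-07) and by 0.50 in NMuMG (SE 0.0671, 0.00013). Obese over control, NMuMG gave a rise of 0.34 (SE 0.0691, adjusted p = 0.0172), lost without control replicate 1, 2 or 3 (0.0536, 0.103 and 0.0654), and E0771 gave 0.36, which did not pass (SE 0.113, 0.103) but did without a low-count filter (0.0136) or without control replicate 3 (0.0346). The lean-over-control effect was smaller in NMuMG by 0.44 (a difference of -0.44, 95% interval -0.72 to -0.16, adjusted p = 0.0242), and the lean-over-obese effect by a difference of -0.41 (-0.68 to -0.14, 0.0282). The first of these was lost without E0771 control replicate 1 (0.0763) or lean replicate 3 (0.0738), and the second without any of 7 single libraries (up to 0.0945).

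Ptgs1, the other cyclooxygenase, did not follow Ptgs2 in E0771. In NMuMG it stood at 19.2, 17.6 and 15.9 CPM in control medium, 12.9, 15.1 and 15.8 with obese secretome, and 21.9, 21.5 and 22.4 with lean secretome. The lean libraries were the highest and the obese ones the lowest, without overlap. In E0771 it had 35, 26 and 15 counts in control medium, 13, 8 and 16 with obese secretome, and 24, 14 and 13 with lean secretome, and the lean libraries overlapped with both other groups.

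In NMuMG, Ptgs1 (ENSMUSG00000047250) rose with lean secretome by 0.32 over control (SE 0.0756, adjusted p = 0.000873) and by 0.57 over obese (SE 0.0789, 4.35e-07). Obese over control gave -0.25, which did not pass (SE 0.0805, 0.0617), but did without a low-count filter (0.0444), without control replicate 3 (0.0322) or obese replicate 3 (0.0474). In E0771, lean over control gave -0.73 (SE 0.351, 0.076) and obese over control gave -1.06 (SE 0.376, 0.135), with no overlap of libraries in the latter. Neither passed, although the first did without control replicate 3 (0.0442) or lean replicate 1 (0.027). The lean-over-control effect differed between the lines, by 1.04 (95% interval 0.44 to 1.64, adjusted p = 0.00536), and this call was lost without E0771 control replicate 1 (0.0757). Per kilobase of exon, Ptgs2 made up 62.4 ± 3.82% of the summed cyclooxygenase level in NMuMG control libraries, 77.2 ± 4.57% with obese and 84.2 ± 0.514% with lean secretome. In E0771 these shares were 12.6 ± 7.19%, 31.4 ± 15.1% and 47.9 ± 10.3%. They rest there on 12, 19 and 53 Ptgs2 counts and 76, 37 and 51 Ptgs1 counts. The obese shares (20.9 to 48.8%) and lean shares (36.1 to 55.3%) of E0771 libraries overlapped.

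Of the terminal synthases, Ptges and Ptges2 differed between the 2 lines in level, and Ptges3 in its rise with lean secretome. Ptges, the microsomal synthase often induced together with Ptgs2, was an E0771 gene, at 29.5, 29.8 and 29.9 CPM in control medium, 33.3, 29.9 and 28.2 with obese secretome, and 44.0, 44.2 and 48.2 with lean secretome. The lean libraries lay above the other 6, which overlapped. In NMuMG it was close to the floor of detection, with 2, 4 and 3 counts in control medium, 1, 3 and 3 with obese secretome, and 16, 9 and 13 with lean secretome, and the lean libraries again lay above all others.

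Ptges (ENSMUSG00000050737) rose in E0771 by 0.60 over control (SE 0.0638, adjusted p = 1.82e-08) and by 0.57 over obese (SE 0.0635, 5.23e-08). In NMuMG it did not pass the low-count filter. Its summed counts of 38 with lean and 9 in control medium gave a ratio of rates of 4.33 with an exact 95% interval of 2.06 to 10.2, and 38 against 7 with obese secretome gave 4.97 (2.19 to 13.2), for counting error only. Without the filter, the adjusted p was 0.00715 and 0.00573. In the fit of both lines Ptges passed the filter only through its E0771 counts, so the differences that follow rest on the few NMuMG counts above. The lean-over-control effect was larger in NMuMG by 1.44 (95% interval 0.44 to 2.44, adjusted p = 0.0109, and 0.0742 without NMuMG control replicate 1). The lean-over-obese effect was larger by 1.66 (0.55 to 2.77, 0.00649, and 0.0522 without NMuMG obese replicate 1).

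Ptges3 (ENSMUSG00000071072) stood at 276, 286 and 291 CPM in E0771 control medium, 307, 281 and 300 with obese secretome, and 408, 368 and 361 with lean secretome. The 3 lean libraries were the highest, and the gene rose by 0.40 over control (SE 0.0451, adjusted p = 6.38e-08) and by 0.35 over obese (SE 0.0451, 6.5e-07). In NMuMG it stood at 257, 250 and 269 CPM in control medium, 275, 271 and 281 with obese secretome, and 270, 287 and 268 with lean secretome. The lean libraries overlapped with both other groups, and the obese ones lay just above the control ones. Lean over control gave 0.09 there (SE 0.0353, adjusted p = 0.0427), a call lost in DESeq2 (0.0576), without a filter (0.0589) and without any of 4 single libraries (control replicates 1 and 2, lean replicates 1 and 2; up to 0.31). The lean effect was smaller in NMuMG, by a difference of -0.34 against control (95% interval -0.46 to -0.22, adjusted p = 1.58e-05) and of -0.38 against obese medium (-0.50 to -0.26, 2.16e-06). A processed copy of the gene, Ptges3-ps, is counted separately and averaged 33.7 ± 1.70 CPM with lean secretome and 27.7 ± 1.61 in control medium in E0771, and reads shared by the 2 copies may be split between them.

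Ptges2, a membrane-associated synthase, was level across media. It ran from 51.3 to 62.3 CPM over the 9 E0771 libraries and from 26.3 to 29.9 CPM over those of NMuMG, the media overlapped in each line, and no comparison of media passed the test. Of the summed level of the 3 synthases per kilobase of exon, Ptges made up 5.15 ± 0.123% in E0771 control libraries and 5.97 ± 0.567% with lean secretome. In NMuMG it made up 0.0228 ± 0.00942% and 0.0918 ± 0.0253%.

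Slco2a1, the prostaglandin transporter, was among the more abundant of the genes in NMuMG and scarce in E0771. In NMuMG it stood at 111, 122 and 114 CPM in control medium, 140, 125 and 119 with obese secretome, and 216, 208 and 222 with lean secretome. In E0771 it stood at 1.42, 1.75 and 2.18 CPM in control medium, 2.28, 1.93 and 2.02 with obese secretome, and 2.93, 3.81 and 2.89 with lean secretome. In both lines the lean libraries lay above the other 6, and control and obese overlapped.

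Slco2a1 (ENSMUSG00000032548) rose with lean secretome over control by 0.90 in NMuMG (SE 0.0527, adjusted p = 5.92e-10) and by 0.84 in E0771 (SE 0.197, 0.000692). Over obese medium it rose by 0.74 in NMuMG (SE 0.0528, 1.13e-08) and by 0.62 in E0771 (SE 0.191, 0.00788), the last being lost without E0771 lean replicate 2 (0.0639). The effects in the 2 lines differed by 0.02 against control (95% interval -0.33 to 0.37, adjusted p = 1) and by 0.10 against obese medium (-0.24 to 0.44, 0.741). Obese over control did not pass in NMuMG (0.16, SE 0.0541, adjusted p = 0.116), but did without a low-count filter (0.0021) or without obese replicate 3 (0.00966).

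Hpgd, the enzyme that inactivates prostaglandins, was not detected in E0771, with 0 counts in 242890182, which allows a level of up to 0.0124 CPM. In NMuMG it had 2 counts in 240020162, 1 in control replicate 3 and 1 in lean replicate 2. It was tested in neither line, and no fold is given.

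Of the receptors, Ptger4 was expressed in NMuMG, with 95, 88 and 82 counts in control medium, 73, 82 and 77 with obese secretome, and 117, 85 and 103 with lean secretome, or 3.17 ± 0.222, 3.11 ± 0.246 and 3.74 ± 0.506 CPM. The media overlapped and no comparison passed. In E0771 it had 5 counts in the 9 libraries and was not tested. Ptger1 ran from 5 to 17 counts per library in E0771 and from 10 to 27 in NMuMG, with overlap between the media and no comparison of media past the test. The library kit keeps strand, but the sources used here do not give the strand setting of the counting, so the low Ptger1 level is uncertain.

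**Figure D3:**
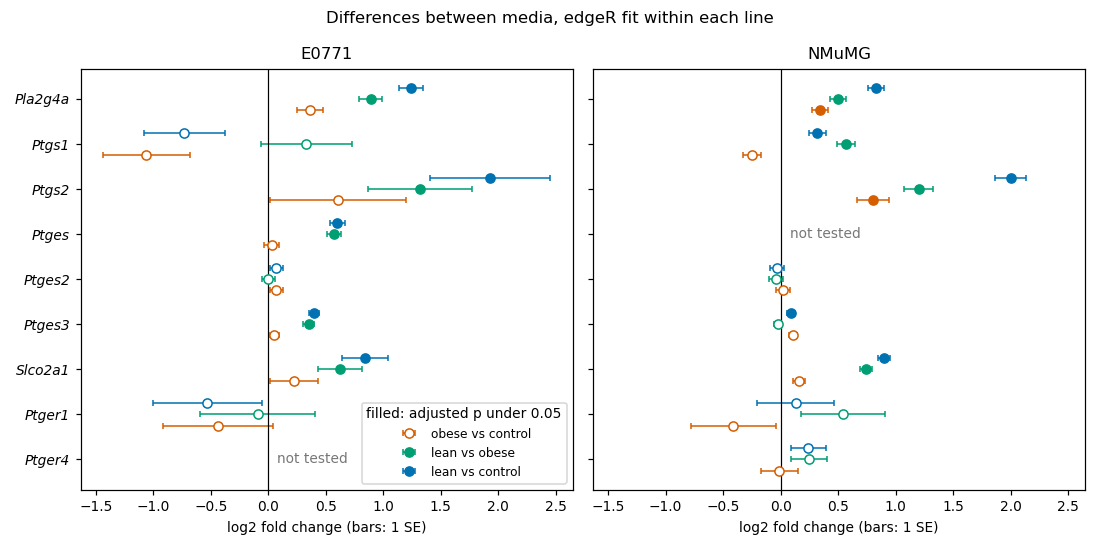
Log2 fold changes between media from the edgeR fit within each line, with bars of 1 SE; filled points have an adjusted p under 0.05. Ptgs2, Pla2g4a and Slco2a1 are filled for both lean contrasts in both lines, the 2 filled obese-over-control points are Ptgs2 and Pla2g4a in NMuMG, and Hpgd is not drawn because it was not tested.

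Counted over the 10 genes, 8 were tested in each line, Hpgd and Ptger4 being left out in E0771 and Hpgd and Ptges in NMuMG. In E0771, lean over control, 5 rose and none fell, where 56.3% of the 13813 tested genes were called, 27.3% higher and 29.0% lower. Lean over obese, the same 5 rose (Ptgs2, Ptges, Ptges3, Pla2g4a and Slco2a1) against 52.7% called and 25.8% called higher. Libraries did not overlap for these 5 in either contrast, and for 61.4% and 60.3% of all tested genes. Ptgs2 passed the filter in E0771 only through its lean libraries, so its part in these counts was close to fixed in advance. In NMuMG, lean over control, 5 rose and none fell (Ptgs1, Ptgs2, Ptges3, Pla2g4a and Slco2a1), where 38.2% of the 15014 tested genes were called and 19.1% called higher. Lean over obese, 4 of these rose, all but Ptges3, against 35.0% called and 17.6% called higher. Libraries did not overlap for those 4 in either contrast, and for 48.0% and 45.2% of all tested genes. The contrasts of a line share libraries, lean over control and lean over obese the lean ones, and are not independent of each other. With calls this frequent over all genes, the counts are a description of the 10 genes.

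Obese over control, none of the 8 tested genes was called in E0771 by edgeR, where 2.61% of all tested genes were, 1.21% higher and 1.40% lower. At an unadjusted p under 0.05 there were 2 (Ptgs1 and Pla2g4a), and DESeq2 also called 0. Libraries did not overlap for those 2, and for 21.5% of all tested genes. In NMuMG 2 were called, Ptgs2 and Pla2g4a, where 5.01% of all tested genes were called, 2.34% higher and 2.66% lower. Libraries did not overlap there for Ptgs1, Ptgs2, Ptges3 and Pla2g4a, and for 21.3% of all tested genes. The difference between the lines was called for 4 of 9 tested genes in lean over control (background 34.5%), 3 in lean over obese (34.2%) and none in obese over control (1.69%), where 1 gene, Ptgs1, had an unadjusted p under 0.05 and DESeq2 called 0.

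Marker levels also moved with lean secretome. The summed level of 8 adipocyte markers in NMuMG was 2.13 to 2.22 CPM with lean secretome, 0.393 to 0.977 in control medium and 0.413 to 1.08 with obese secretome. Cidec made up most of it, at 2.02 CPM with lean secretome and 0.550 in control medium, while Lep, Plin1 and Cfd were at 0 in all 3 lean libraries and Adipoq had 3 counts. In E0771 the same sum stayed between 0.751 and 1.65 CPM in all media. The summed level of 5 fibroblast markers in E0771 was 758 to 840 CPM in control medium, 530 to 729 with obese and 295 to 321 with lean secretome, led by Col1a1. The 4 mesenchymal markers summed to 1970 to 2190 CPM with lean secretome in E0771 (2880 to 3010 with obese) and to 2980 to 3110 in NMuMG (3510 to 3700 with obese), below the control sums given above. In E0771 this was nearly all Vim, at 3030 CPM in control medium and 2020 with lean secretome, and Fn1 had no count. In NMuMG only Fn1 fell clearly, from 1540 CPM in control medium to 954 with lean secretome. There Vim (1780 and 1770) and Zeb1 (53.4 and 53.1) were level, and Cdh2 was higher (257 and 273). The 8 epithelial markers in NMuMG summed to 7210 to 7630 CPM in control medium, 6830 to 7120 with obese and 7910 to 8190 with lean secretome, and the macrophage and leukocyte markers there to 193 to 206 CPM with lean and 175 to 182 with obese secretome. In E0771, Ptprc had 0 counts in control medium, 2 with obese and 21 with lean secretome, and Csf1r had 5, 3 and 28. Cd68 was level there, at 1.99, 1.74 and 2.13 CPM in the same order. Krt14 had 11, 18 and 111 counts in E0771, where Krt8 stood at 254, 235 and 245 CPM. Krt5 in NMuMG averaged 0.227, 0.478 and 5.99 CPM, again in that order. The part of these marker genes in the results was not tested.

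Among noncoding neighbours, Ptgs2os had 10, 8 and 15 counts in NMuMG control libraries, 13, 5 and 13 with obese and 18, 26 and 16 with lean secretome, and none in E0771. In NMuMG, Ptgs2os2 had 2, 0 and 0 counts in control medium, 2, 1 and 1 with obese secretome, and 2, 2 and 9 with lean secretome. Ptgs2os2 was higher in E0771, with 13, 21 and 11 counts in control medium, 23, 13 and 22 with obese secretome, and 39, 34 and 46 with lean secretome. Ptgs2os2 rose in E0771 by 1.22 over control (SE 0.312, adjusted p = 0.0014), and its lean libraries lay above the other 6. In NMuMG, Ptgs2os did not pass (adjusted p = 0.066).

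The wider pathway was read from lists of related genes, as counts of tested genes beside the median log2 fold change of lean over control. Over all tested genes, 56.3% were called in E0771 (27.3% higher) and 38.2% in NMuMG (19.1% higher), with medians of -0.013 and -0.005, and each count below is read against these. Of 11 other phospholipases and arachidonate-supplying enzymes tested in E0771, 4 rose and 2 fell, with a median of 0.40, a share called that is near that of all genes. The rises included Daglb, which makes the arachidonate-containing lipid 2-AG (0.61), and the phospholipases Pla2g6 (0.47) and Pla2g12a (0.45), while Mgll, which breaks 2-AG down to arachidonic acid, fell (-0.43). In NMuMG 4 of 10 rose and 3 fell, with a median of 0.09. There Pla2g7 rose by 0.88, Pla2g6 by 0.39 and Daglb by 0.35, and Dagla fell by 0.27.

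Prostanoid synthases and reductases other than the 10 genes rose in NMuMG for 7 of 14 tested and fell for 1 (median 0.31), beside 38.2% of all genes called. The largest rises were in Cbr3 (2.13, SE 0.188), Akr1b8 (1.78, SE 0.194), the thromboxane synthase Tbxas1 (1.51, SE 0.295) and Cbr1 (1.26, SE 0.0773), a carbonyl reductase that can use prostaglandin E2. In E0771 4 of 8 rose and 2 fell (median 0.26), beside 56.3% of all genes called, led by Akr1b3 (0.98, SE 0.133), which can make prostaglandin F2α, Cbr1 (0.96, SE 0.345) and Ptgr1 (0.81, SE 0.0727), which reduces 15-keto prostaglandins, while Cbr2 fell (-0.65, SE 0.0994). The Cbr1 call in E0771 was lost without control replicate 1 (0.0835) or lean replicate 1 (0.0578). Many of these reductases also act on other carbonyl compounds.

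Of 9 other receptor and export genes, only 2 were tested in each line. Abcc4, a transporter that exports prostaglandins and other anions, rose from 99.4 ± 0.526 to 259 ± 7.93 CPM in E0771 (1.37, SE 0.0928, adjusted p = 1.98e-06) and from 210 ± 5.42 to 531 ± 42.1 CPM in NMuMG (1.34, SE 0.122, 0.000199). Ptgfrn fell in E0771 (-0.31, SE 0.0373). The receptors Ptger2 and Ptgdr had no counts in any group's 3 libraries.

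Of the lipoxygenase, leukotriene and epoxide branches, 4 of 8 tested genes rose and 1 fell in each line, in E0771 near the share of all genes called, with medians of 0.53 in E0771 and 0.40 in NMuMG. Ephx1, the microsomal epoxide hydrolase, rose by 0.77 in E0771 and 1.49 in NMuMG, and the cytochrome Cyp2j6 by 0.75 and 0.85. Cyp4f13 fell in E0771 (-0.46) and rose in NMuMG (0.49). Aloxe3 rose in E0771 (1.21), and Cyp4f16 rose by 0.31 in E0771 and by 0.34 in NMuMG.

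Early genes that cAMP and CREB can raise, and that many other signals raise too, rose for 12 of 17 tested in E0771 and fell for 3, beside 56.3% of all genes called, with a median of 0.48. The largest changes were in the EGF-receptor ligand Areg (2.32, SE 0.215), Fos (2.20, SE 0.602, from 0.146 ± 0.126 to 0.672 ± 0.204 CPM), Fosb (1.23, SE 0.272) and Dusp1 (1.18, SE 0.203). In NMuMG 7 of 17 rose and 1 fell, beside 38.2% of all genes called, with a median of 0.18. There Areg rose by 1.01 (SE 0.0514), Ereg by 0.90 (SE 0.0604) and Nr4a1 by 0.90 (SE 0.107), and the cAMP phosphodiesterase Pde4b fell by 1.08 (SE 0.25).

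**Figure D4:**
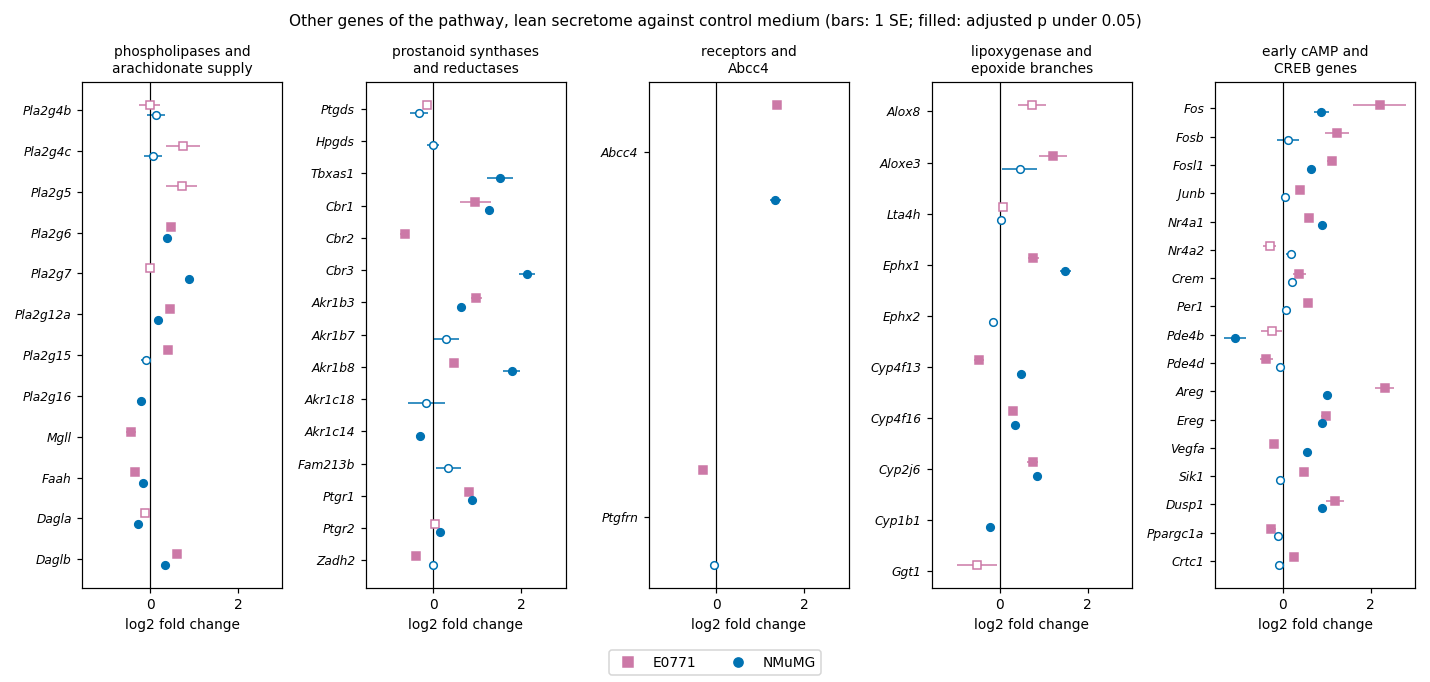
Log2 fold change of lean secretome over control medium for the tested genes of 5 related lists, with bars of 1 SE, in E0771 (squares) and NMuMG (circles); filled points have an adjusted p under 0.05. Abcc4, Cbr1, Akr1b3, Ptgr1, Ephx1, Areg and Dusp1 are filled and to the right of 0 in both lines.

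The genes whose levels followed Ptgs2 most closely over the 9 NMuMG libraries were Wnt7a (Pearson r of log2 CPM 0.997), Areg (0.996), Gprc5a (0.996), Cyp2c70 (0.995) and Ankrd50 (0.995), out of 10794 candidates. Among the 10 genes, Pla2g4a (0.989) and Slco2a1 (0.961) were the closest in NMuMG. In E0771, where Ptgs2 had 2 to 19 counts per library, they included Rnf227 (0.98), Pus7l (0.965), Ercc6l (0.963) and Mef2d (0.96) out of 10049 candidates, and Pla2g4a (0.895) among the 10. These values describe 9 libraries in 3 media, which share the order of the media and their depth.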

How the data were processed

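The authors deposited raw read counts per gene, with no normalization, for 18 mouse libraries, and these counts were used as deposited. Per the submitters' processing notes, the build was GRCm39 and the tools were cutadapt 1.16, STAR 2.7.9a and featureCounts 1.6.3; their settings are not given in the sources used here. Symbols and exon lengths came from GENCODE M21 (GRCm38.p6), which matched 52073 of 56980 identifiers, and promoters from RefSeq on GRCm38.p6. CPM are counts scaled to a library total of 1000000. Media were compared within each line over its 9 libraries with edgeR 4.0.16 in R 4.3.3 (filterByExpr, TMM factors, robust quasi-likelihood F test, Benjamini-Hochberg adjustment over all tested genes, threshold 0.05). The lines were compared in 1 fit of all 18 libraries. SEs are Wald errors on the log2 scale. The 95% intervals of differences between lines take these SEs with a normal distribution, so they can be narrower than the F test implies. The code was tested on simulated data.

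The 10 genes and the related lists were chosen with earlier results of these data known. From each list, the called genes with the largest absolute log2 fold change, up to 4 per line, were named, and the 5 genes per line closest to Ptgs2 by Pearson r. Alternatives were DESeq2 1.42.0, its size factors, no filter, a replicate block, only the groups compared, and leaving out each library. Intervals of count ratios cover counting error only. The human libraries were not used here. Of the genes this rule names, 1 close to Ptgs2 and 1 neighbour are not reported here.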

Additional observations from a re-analysis of the deposited data

Results flagged for a closer look

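For 4 genes the response to lean secretome differed between NMuMG and E0771 by a test of the difference itself (edgeR, adjusted over all tested genes), given as the NMuMG effect minus the E0771 effect on the log2 scale. Of all 16529 tested genes, 34.5% were called in the same test in lean over control and 34.2% in lean over obese. Ptgs1 differed by 1.04 in lean over control, with a rise in NMuMG and no call in E0771. Ptges differed by 1.44 in lean over control and by 1.66 in lean over obese, on 7 to 38 counts per NMuMG group. It passed the low-count filter of that fit only through its E0771 counts. Ptges3 differed by -0.34 and -0.38, and Pla2g4a by -0.44 and -0.41, in the same order. The calls of Ptgs1, Ptges and Pla2g4a were each lost on leaving out single libraries, and those of Ptges3 held in every refit. Line and growth medium cannot be told apart in these differences.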

How the results depend on the processing

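The values were recomputed under 5 other settings and without each library. Of 800 such recomputations of fold changes of the 10 genes, 750 kept direction and side of the threshold, 34 lost the call, 10 gained one and 6 changed sign. Results of these genes called in no fit are not among them, except the differences between lines for Ptgs2 and Slco2a1 with lean secretome and Ptgs1 in E0771 with obese secretome over control. Obese over control moved most. In E0771, 360 genes became 626 without a filter and 79 to 601 without single libraries, and of the 10 genes 0 became 1 without a filter and 0 to 1 without single libraries. In NMuMG, 752 genes became 384 to 893 without single libraries, and 2 of the 10 genes became 4 without a filter, 1 with only the groups compared and 0 to 3 without single libraries. The difference between lines in obese over control, 279 genes, became 422 in DESeq2, 428 without a filter and 148 to 392 without single libraries, and that in lean over control, 4 of the 10 genes, became 2 to 4. Differences between lines that were not called changed sign without single libraries: Ptgs2 ran from -0.58 to 0.41 in lean over control and from -0.50 to 0.05 in lean over obese, where it was 0.01 without NMuMG obese replicate 1, and Slco2a1 ran from -0.13 to 0.17 in lean over control, with other negative values of -0.03 and -0.05. For the 37 list and neighbour genes named, an alternative set chosen after seeing the data, 516 of 518 refits kept the call. The cause of these changes was not tested.

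Replicate numbers are shared by the groups but did not pair the libraries: correlations of same-numbered deviations ran from -0.0942 to 0.110 in E0771 and from -0.0285 to 0.025 in NMuMG, and 0 of 9 libraries in each line correlated best with their own number. With the replicate block, genes called were 7635 (lean over control), 7151 (lean over obese) and 355 (obese over control) in E0771, and 5652, 5190 and 722 in NMuMG. Of the 10 genes, 1 in place of 2 was then called in obese over control in NMuMG (Pla2g4a at an adjusted p of 0.0635) and 4 in place of 5 in lean over control (Ptges3 at 0.054). For the differences between lines, 3 in place of 4 were called in lean over control and 2 in place of 3 in lean over obese (Pla2g4a at 0.0773 and 0.0867). Depth limits Ptgs2, Ptgs1 and Ptger1 in E0771, Ptges in NMuMG, and Hpgd in both.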
